A study of Mus musculus with 6 samples.

Results

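The genes of the unfolded protein response and of the integrated stress response were followed through 6 arrays of mouse primary hepatocytes. Members were taken from a list of 30 names, of which 29 are gene symbols and 1, Vldlr-free, is not and matched nothing. A gene counted as measured when a probe set carried only its symbol, and the brightest such probe set was kept, which gave 28 of 22180 genes. Pdia4, a disulfide isomerase gene of the endoplasmic reticulum, lies only on a probe set shared with another symbol and was not read. The members fall into 13 chaperones and folding enzymes, 4 genes for the stress sensors and XBP1, 4 for the degradation of misfolded proteins and 7 of the ATF4 arm.

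Hepatocytes treated for 4 h with GW4064 at 2 µM, a compound that activates the nuclear bile acid receptor FXR, were set against hepatocytes given DMSO, the solvent. Both groups held 3 arrays, numbered 1 to 3, and the cells of both were wild-type C57Bl/6 hepatocytes from adult male mice, kept without serum. The design names 3 independent preparations, but whether a number stands for a preparation is not given. Levels are the authors' RMA values, log2 intensities per probe set, and a difference of 1 on this scale is a 2-fold difference.

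The unfolded protein response starts when misfolded proteins build up in the endoplasmic reticulum and engage sensors in its membrane. IRE1 (gene Ern1) splices the Xbp1 mRNA, ATF6 is cut to release a transcription factor, and PERK (gene Eif2ak3) phosphorylates the translation factor eIF2. The first of these routes and the second raise chaperones and degradation factors, while phosphorylated eIF2 lowers most translation and favours that of ATF4, which drives amino acid and stress genes. Hepatocytes, which secrete most plasma proteins, depend on this system, and other kinases of eIF2 feed the same ATF4 arm.

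Known FXR targets were higher with the agonist: Abcb11, the bile salt export pump gene and a known FXR target, had levels of 8.14, 7.81 and 7.96 with GW4064, against 5.09, 4.83 and 4.74 with DMSO. Nr0b2, the FXR target SHP, had a log2 change of 2.37 (SE 0.12, limma adjusted p = 1.17e-04). The hepatocyte label was met by the markers, with Alb, the albumin gene, at 12.82 in GW4064 and 12.85 in DMSO arrays, against a median of 4.20 over all genes. All 28 members lay above that median, from 5.15 for Manf to 11.05 for Calr in mean level, and the array medians differed by at most 0.053.

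No member was called between GW4064 and DMSO. In limma's test, adjusted over all 22180 genes, 0 of 28 passed 0.05, where 0.0496% of all genes did, and 0 of 28 passed at an unadjusted p under 0.05, where 5.66% of all genes did. With the replicate number as a block, again 0 of 28 passed after adjustment against 0.0812% of all genes, and 1, Ppp1r15a, passed unadjusted against 9.13%. In no member were the 3 GW4064 arrays all above or all below the 3 DMSO arrays, whereas the groups did not overlap in 10.8% of all genes. Fitted log2 changes ran from -0.27 for Ppp1r15a to 0.13 for Dnajc3, that is from 0.831-fold to 1.10-fold.

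These small changes were measured against a large spread within each group. The SE of a member's change had a median of 0.19 without the block, against 0.11 over all genes, and of 0.082 with it, against 0.090. In the blocked fit the 95% intervals of all 28 members lay between -0.47 and 0.45. The adjusted p-values ran from 0.979 to 0.999 without the block and from 0.458 to 0.996 with it. Of the 28 members, 7 had the same sign in all 3 same-numbered pairs, and 31.2% of all genes did.

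**Figure D1:**
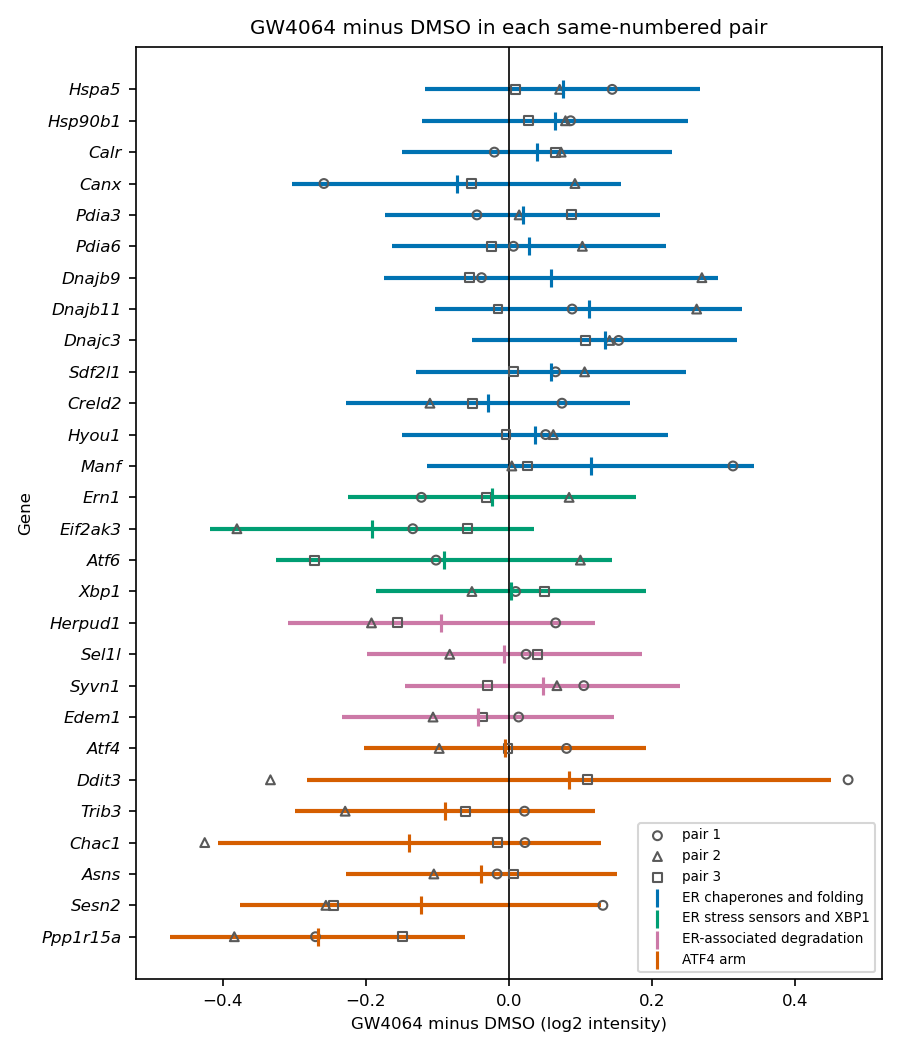
GW4064 minus DMSO for each of the 28 genes (rows) on the log2 scale: open symbols are the 3 same-numbered pairs, ticks the mean change and bars the 95% interval of limma's fit with the replicate block, coloured by arm. The bars reach from -0.47 to 0.45, and the bar of Ppp1r15a is the one that leaves out 0, before adjustment.

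The sensor genes were close to level between the groups. Ern1, which encodes the kinase and ribonuclease IRE1, had levels of 7.15, 7.35 and 7.61 in GW4064 arrays, against 7.27, 7.27 and 7.65 in DMSO arrays. Atf6 had 8.39, 8.33 and 8.80 with GW4064, against 8.49, 8.23 and 9.07 with DMSO, and in both groups array 3 was the highest. Eif2ak3, the gene of PERK, had 6.60, 6.18 and 6.73 with GW4064, against 6.74, 6.56 and 6.79 with DMSO. It was lower in 3 of 3 pairs, by -0.13, -0.38 and -0.06, and its change of -0.19 (SE 0.15) had a limma adjusted p of 0.979, or 0.606 with the block.

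Xbp1, the transcription factor gene of the IRE1 route, differed least. Its levels were 9.15, 9.08 and 9.32 with GW4064, against 9.14, 9.13 and 9.27 with DMSO, a log2 change of 0.0022 (blocked 95% interval -0.19 to 0.19). One probe set sums all Xbp1 transcripts, so the spliced form, which marks IRE1 activity, was not measured apart. The median change of these 4 genes was -0.06, with 1 of 4 higher.

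Chaperones and folding enzymes had a median log2 change of 0.06, against -0.02 over all genes, and 11 of 13 were higher, where 44.6% of all genes were. Leaving out a single array, which breaks a pair, turned that median to -0.13 (GW4064 array 3) or -0.20 (DMSO array 2). It stayed positive with any other array or any whole number left out. In pair 3 the chaperone median was 0.007, with 7 of 13 higher, so its sign is not settled. Hspa5 (probe set 17370103), the central chaperone BiP that also holds the sensors inactive, had levels of 9.58, 8.87 and 10.04 with GW4064, against 9.44, 8.80 and 10.03 with DMSO. Within a group its arrays differed by more than 1 on the log2 scale, yet the GW4064 array stood at most 0.144 above the DMSO array of the same number. Its change was 0.07 (SE 0.34, adjusted p = 0.998), and with the block the interval was -0.12 to 0.27 (adjusted p = 0.825). Dnajc3, a co-chaperone that also inhibits eIF2 kinases, had the highest change of the group, 0.13, from levels of 9.92, 9.29 and 9.99 with GW4064 and 9.76, 9.15 and 9.89 with DMSO.

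The same picture held for the stress-inducible chaperone partners. Sdf2l1, a component of the BiP complex, had 6.81, 6.04 and 7.68 with GW4064, against 6.75, 5.94 and 7.67 with DMSO. Hyou1, the nucleotide exchange factor GRP170, had 8.19, 7.46 and 8.97 with GW4064, against 8.14, 7.40 and 8.98 with DMSO. Dnajb9, the BiP co-chaperone ERdj4, had 8.48, 8.12 and 9.50 with GW4064, against 8.52, 7.85 and 9.55 with DMSO. In each of these genes array 2 was the lowest and array 3 the highest of its group, and the groups overlapped almost wholly.

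Hsp90b1, the chaperone GRP94, had 11.15, 10.52 and 11.41 with GW4064, against 11.07, 10.44 and 11.39 with DMSO. Creld2, a disulfide isomerase-like protein, had 8.20, 7.41 and 8.72 with GW4064, against 8.13, 7.52 and 8.77 with DMSO, and Manf, a secreted neurotrophic and BiP-binding factor, had 5.36, 4.63 and 5.63, against 5.05, 4.63 and 5.60. Manf was the faintest member, and its highest pair difference, 0.31, came from pair 1. The lectin chaperones Calr and Canx and the isomerase Pdia3 were brighter and steadier: the lowest and highest of their 18 values were 10.54 and 11.19. Their log2 changes were 0.04, -0.07 and 0.02. Pdia6, a further isomerase that attenuates IRE1 signalling, had 9.97, 9.48 and 10.23 with GW4064, against 9.96, 9.38 and 10.25 with DMSO. Dnajb11, the co-chaperone ERdj3, had 7.78, 7.38 and 7.77 with GW4064, against 7.69, 7.12 and 7.78 with DMSO, with array 2 the lowest in both groups.

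Promoters of these genes are shown for the element through which ATF6 and XBP1 are known to act. RefSeq windows (GRCm38.p6) from 250 bases before to 50 after the transcription start were found for 26 of the 29 symbols, and not for Hyou1, Manf and Atf6. The ER stress response element, ERSE, was searched on both strands as CCAAT, any 9 bases and CCACG. It was present in 8 of the 26 genes, against 0.137% of 27025 genes with a window. The element was picked for its known part in this response, so its share among the members is no independent test. The matching sites are given on the strand that carries them, with CCAAT and CCACG in capitals.
Calr, chr8:84847075-84847093, plus strand: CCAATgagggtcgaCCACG
Canx, chr11:50325800-50325818, minus strand: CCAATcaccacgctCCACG
Creld2, chr15:88819520-88819538, minus strand: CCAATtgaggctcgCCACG
Dnajc3, chr14:118937827-118937845, plus strand: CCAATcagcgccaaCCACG
Hsp90b1, chr10:86705533-86705551, plus strand: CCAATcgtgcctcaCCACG
Hsp90b1, chr10:86705638-86705656, minus strand: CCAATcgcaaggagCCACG
Hspa5, chr2:34772025-34772043, plus strand: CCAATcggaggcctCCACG
Pdia6, chr12:17266491-17266509, plus strand: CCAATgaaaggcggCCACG
Syvn1, chr19:6046532-6046550, plus strand: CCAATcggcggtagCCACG

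Of the 8 genes, 7 are chaperones or folding enzymes and the other is Syvn1. Hsp90b1 holds 2 matches on opposite strands. The windows of Hspa5 and Hsp90b1 show where the element sits, in the gene's reading direction with the matches in capitals. The match of Hspa5 starts 65 bases before the transcription start, and those of Hsp90b1 start 212 and 107 bases before it.
Hspa5, chr2:34771840-34772139, plus strand: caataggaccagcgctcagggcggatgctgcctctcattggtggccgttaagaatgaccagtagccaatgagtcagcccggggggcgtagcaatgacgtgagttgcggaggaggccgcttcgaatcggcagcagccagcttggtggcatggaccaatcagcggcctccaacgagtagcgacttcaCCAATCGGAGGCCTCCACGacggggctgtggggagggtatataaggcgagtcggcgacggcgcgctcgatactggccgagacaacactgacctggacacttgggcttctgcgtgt
Hsp90b1, chr10:86705395-86705694, minus strand: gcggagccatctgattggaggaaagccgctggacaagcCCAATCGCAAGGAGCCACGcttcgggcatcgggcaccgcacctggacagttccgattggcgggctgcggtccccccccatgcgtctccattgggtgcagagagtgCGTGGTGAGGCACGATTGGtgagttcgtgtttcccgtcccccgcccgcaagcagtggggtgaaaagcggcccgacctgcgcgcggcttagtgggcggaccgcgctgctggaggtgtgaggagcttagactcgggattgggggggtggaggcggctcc

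The degradation genes showed no larger changes. Herpud1, a membrane factor that recruits the retrotranslocation machinery, had 10.35, 9.91 and 10.27 with GW4064, against 10.29, 10.10 and 10.43 with DMSO, a change of -0.09 (SE 0.14). Sel1l and Syvn1, the adaptor and the ubiquitin ligase of one complex, had changes of -0.01 (SE 0.22) and 0.05 (SE 0.19). Sel1l had 8.31, 7.87 and 8.67 with GW4064, against 8.29, 7.95 and 8.63 with DMSO, and again array 2 was the lowest and array 3 the highest. Edem1, which hands mannose-trimmed glycoproteins to that complex, had -0.04 (SE 0.17). A second, faint probe set of Edem1 lay between 3.45 and 3.72 with GW4064 and between 3.48 and 3.59 with DMSO. The median change of the 4 genes was -0.02, and it was 0.002 after quantile normalization and 0.01 with the mean over probe sets, so it has no settled sign.

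The related element ERSE-II, searched on both strands as ATTGG, any base and CCACG, was present in Dnajb11, a BiP co-chaperone, and Herpud1, against 0.0444% of all genes. Their sites are given with the fixed letters in capitals.
Dnajb11, chr16:22857852-22857862, plus strand: ATTGGcCCACG
Herpud1, chr8:94386377-94386387, plus strand: ATTGGgCCACG

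In the ATF4 arm 6 of 7 genes were lower and the median log2 change was -0.09. That median was 0.01 without GW4064 array 2, 0.02 without DMSO array 3 and -0.0051 without both arrays of number 2, so its sign is not settled. Atf4 itself had 8.29, 8.26 and 8.45 with GW4064, against 8.21, 8.36 and 8.45 with DMSO, a change of -0.01 (blocked interval -0.20 to 0.19). ATF4 is controlled mainly at translation, which these arrays did not measure. Ddit3, the gene of the transcription factor CHOP, had 5.85, 5.30 and 6.89 with GW4064, against 5.37, 5.63 and 6.78 with DMSO. Its pair differences, 0.47, -0.33 and 0.11, had no common sign.

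Ppp1r15a, the gene of GADD34, which leads a phosphatase back to eIF2, was lower in 3 of 3 pairs. It had 5.45, 5.29 and 6.42 with GW4064, against 5.72, 5.67 and 6.57 with DMSO. The change of -0.27 had an SE of 0.32 without the block and 0.085 with it, where the interval was -0.47 to -0.06, with an unadjusted p of 0.0188 and an adjusted p of 0.458. It therefore did not pass over all genes in either fit.

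Asns and Chac1 had the smallest ranges between numbers in the arm, 1.11-fold and 1.09-fold. Asns, asparagine synthetase, had 8.48, 8.39 and 8.60 with GW4064, against 8.50, 8.50 and 8.60 with DMSO. Chac1, which degrades glutathione, had 6.69, 6.54 and 6.61 with GW4064, against 6.66, 6.96 and 6.63 with DMSO, and its DMSO array 2 stood above the other 5. Trib3, a pseudokinase that restrains AKT and ATF4, had a change of -0.09 (SE 0.16), and Sesn2, a leucine-sensing inhibitor of mTORC1, had -0.12 (SE 0.19). Sesn2 had 6.49, 6.87 and 6.74 with GW4064, against 6.36, 7.13 and 6.99 with DMSO, so its lowest array was number 1 in both groups.

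The ATF4 element, searched on both strands as TGATGNAA, was present in 4 of the 26 genes, against 4.51% of all genes. Capitals mark its fixed letters in those 4 genes, 3 of them in the ATF4 arm.
Asns, chr6:7693225-7693232, minus strand: TGATGaAA
Chac1, chr2:119351049-119351056, minus strand: TGATGcAA
Herpud1, chr8:94386317-94386324, minus strand: TGATGcAA
Trib3, chr2:152344039-152344046, plus strand: TGATGtAA

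Set side by side, the ATF4 arm had a median change of -0.09 and the chaperones 0.06, a difference of -0.15 with no test. By same-numbered pairs the difference of medians was -0.04 in pair 1, -0.33 in pair 2 and -0.02 in pair 3. Pair 2 thus made most of it, and with both arrays of number 2 left out it was -0.03. In pair 1, 5 of 7 ATF4-arm genes and 9 of 13 chaperones were higher with GW4064. In pair 2 all 7 ATF4-arm genes were lower with GW4064 and 12 of 13 chaperones were higher. In pair 3, 2 of 7 and 7 of 13 were higher. Of all 22180 genes, 10192, 10504 and 10122 were higher in pairs 1, 2 and 3. Leaving out the DMSO array of number 2 alone, which breaks the pair, turned the difference to 0.14.

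**Figure D2:**
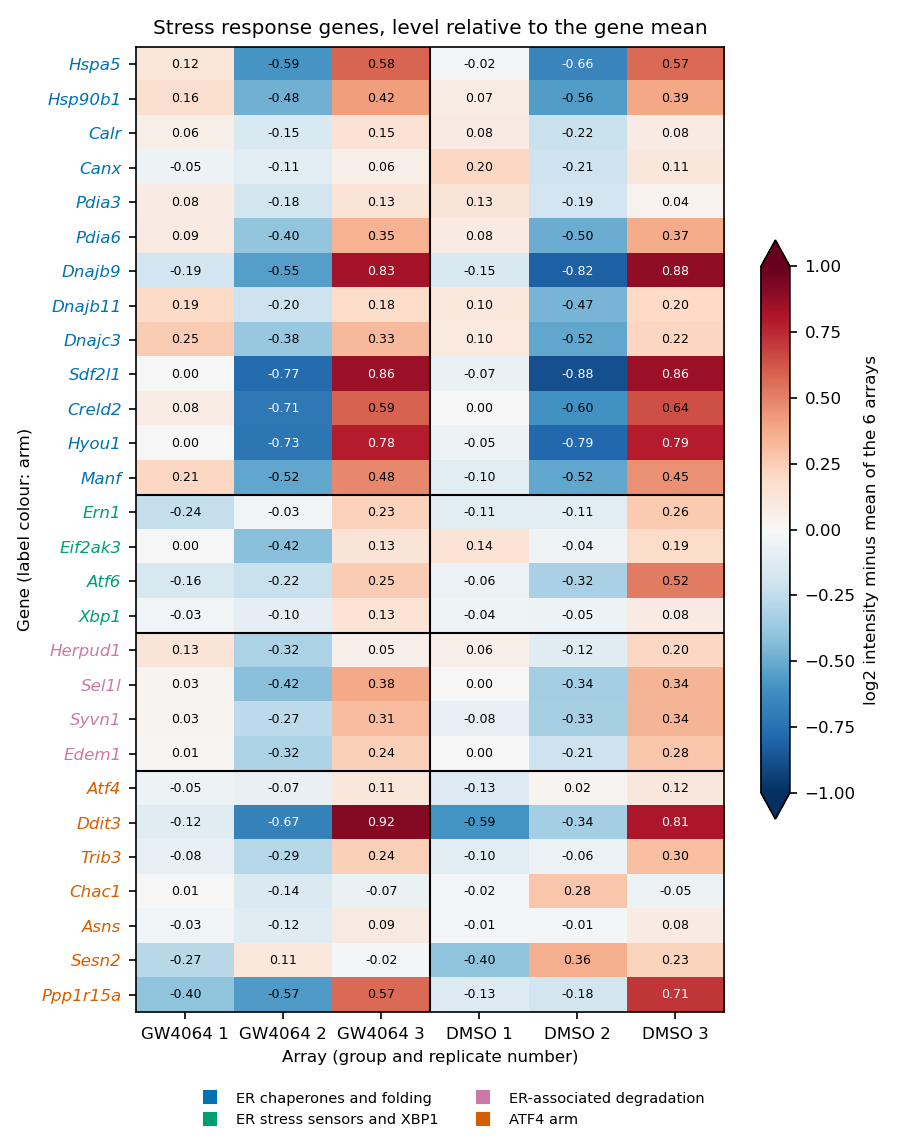
Level of each of the 28 genes (rows, label colours give the arm) on each array (columns, GW4064 left and DMSO right), as log2 intensity minus the gene's mean over the 6 arrays. Array 3 of each group is highest and array 2 lowest for most chaperone and degradation genes, and the GW4064 and DMSO arrays of the same number look alike.

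Far larger differences than those with GW4064 stood between the replicate numbers. Between the means of the 2 arrays sharing a number, the chaperones had a median range of 1.89-fold, against 1.14-fold over all genes. Sdf2l1 ranged 3.22-fold, Dnajb9 and Hyou1 2.91-fold each, Creld2 2.42-fold and Hspa5 2.29-fold. In 27 of 28 members this range was larger than the change with GW4064, the exception being Chac1, and it was larger in 78.8% of all genes. The range of 9 members lay above the 99th percentile of all genes, and that of 17 above the 95th.

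The difference between numbers was then tested with the F test of the block in limma, a comparison chosen after these values were seen. It called 11 of 28 members, against 1.07% of all genes. They were 9 of 13 chaperones (Hspa5, Hsp90b1, Pdia6, Dnajb9, Dnajc3, Sdf2l1, Creld2, Hyou1 and Manf) and 2 of 7 ATF4-arm genes, Ddit3 and Ppp1r15a. Adjusted p-values ran from 0.0086 for Sdf2l1 to 0.0463 for Ddit3. None of the 4 sensor or 4 degradation genes passed, and Sel1l was the closest with 0.0535. At an unadjusted p under 0.05 there were 23 members, against 14.8% of all genes.

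The members shared a direction as well. The mean was lowest in number 2 for 24 of 28 members and highest in number 3 for 25. The full order of 2, then 1, then 3 held within both the GW4064 arrays and the DMSO arrays for 18 of 28 members, where 5.01% of all genes showed it. It was met by 10 of 13 chaperones, 3 of 4 sensor genes, 3 of 4 degradation genes and 2 of 7 ATF4-arm genes. The order was picked from the same members after these values were seen, so a high share among them was built in. Over all genes the median difference of number 3 minus number 2 was -0.003, against 0.92 for the chaperones, 0.57 for the degradation genes, 0.35 for the sensors and 0.15 for the ATF4 arm. Within the ATF4 arm Ddit3 and Ppp1r15a were 2.58-fold and 2.02-fold higher in number 3 than in number 2. For number 3 over number 2, Trib3 was 1.36-fold, Asns 1.11-fold, Atf4 1.10-fold, Chac1 0.913-fold and Sesn2 0.912-fold.

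These calls rest on number 3 more than on the others. With both arrays of number 1 left out, 13 members were called, against 1.56% of all genes. With number 2 left out there were 4 (Ddit3, Dnajb9, Ppp1r15a and Sdf2l1), against 0.424% of all genes, and with number 3 left out 0, against 0.0721%. Even then number 1 stood above number 2 in each chaperone, for instance at means of 8.16 and 7.43 for Hyou1 and 6.78 and 5.99 for Sdf2l1. In RNA pooled from many cells, fewer cells of a type and less RNA per cell cannot be told apart.

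**Figure D3:**
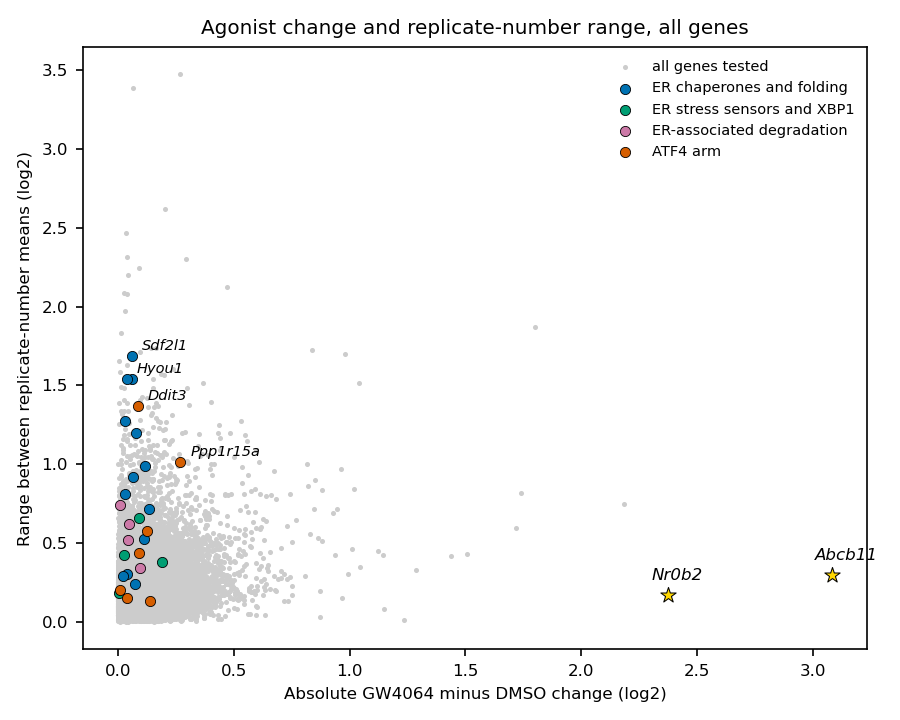
Each point is a gene, with the absolute log2 change between GW4064 and DMSO on the horizontal axis and the range between the 3 replicate-number means (log2) on the vertical axis. The 28 members (coloured by arm) stand at changes of at most 0.27, and several, led by Sdf2l1, rise high on the vertical axis, while the FXR targets Abcb11 and Nr0b2 lie far to the right.

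**Figure D4:**
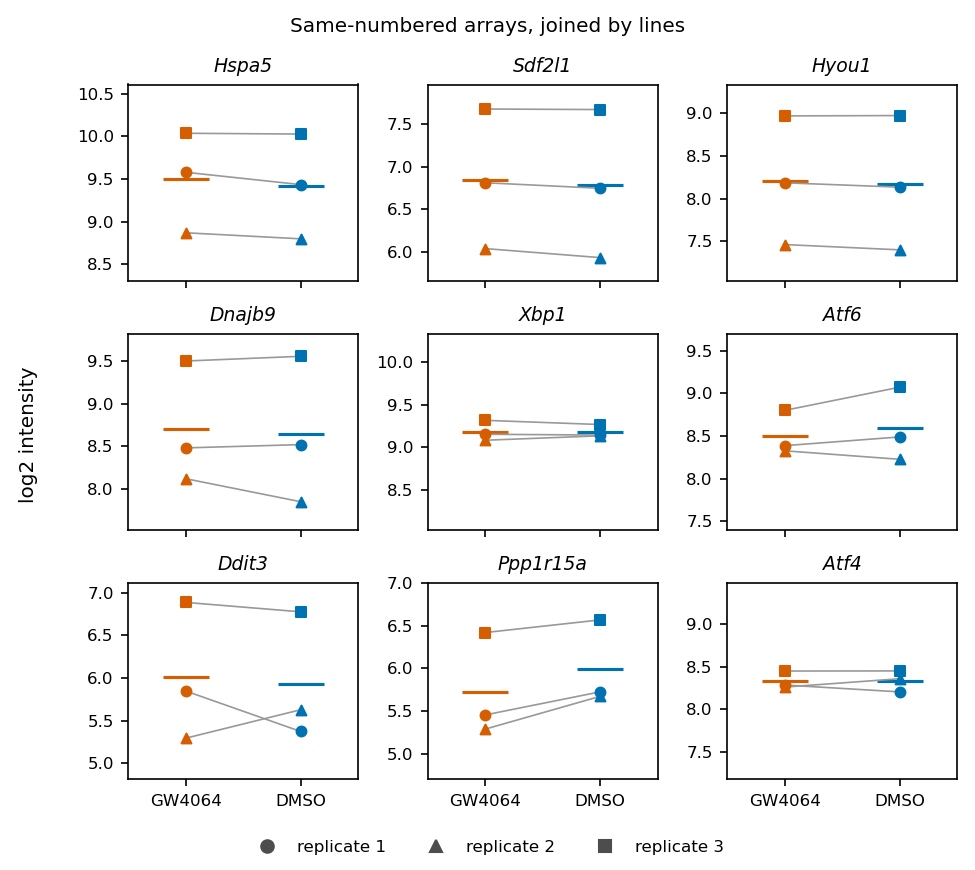
Log2 intensity of 9 members in GW4064 (left) and DMSO (right) arrays, with same-numbered arrays joined by lines and group means as bars; all panels span the same length of scale. The lines of Hspa5, Sdf2l1 and Hyou1 run nearly flat and far apart, whereas those of Xbp1 and Atf4 lie close together.

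Markers of cell types were read beside this pattern, with 37 measured. Between numbers 2 of 37 passed, against 1.07% of all genes. They were Tat, the tyrosine aminotransferase gene of hepatocytes, and Cd68, a macrophage lysosomal protein gene. Cd68 had 9.86, 8.46 and 9.93 with GW4064, against 9.63, 8.53 and 10.02 with DMSO. Tat had 10.10, 10.16 and 10.91 with GW4064, against 10.21, 10.37 and 11.23 with DMSO. The 8 Kupffer cell and macrophage markers as a whole had mean levels of 4.33 to 4.52 with GW4064 and 4.32 to 4.49 with DMSO, with 1 of 8 called between numbers. Their median for number 3 minus number 2 was -0.15, with 3 of 8 higher, so Cd68 stood apart from most of its list. Adgre1, a marker of macrophages, averaged 2.92 with GW4064 and 2.99 with DMSO, under the median gene. Of the 8 Kupffer cell and macrophage markers 2 lay above the median gene. Of the 8 stellate cell markers 2 did as well, so most of both lists were faint. The median for number 3 minus number 2 was -0.42 for the 7 endothelial markers, -0.18 for the 9 hepatocyte markers, -0.05 for the 8 stellate cell markers and 0.03 for the 5 cholangiocyte markers. The endothelial markers had mean levels of 4.28 to 4.60 with GW4064 and 4.27 to 4.67 with DMSO, and 0 of 7 were called. The hepatocyte markers had mean levels of 10.55 to 10.62 with GW4064 and 10.55 to 10.61 with DMSO, with 1 of 9 called. The stellate cell markers, at 3.99 to 4.09 with GW4064 and 3.91 to 4.05 with DMSO, and the cholangiocyte markers, at 4.39 to 4.61 with GW4064 and 4.37 to 4.49 with DMSO, held no called gene. The part of these cells in the result was not tested.

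The promoter matches shown above describe letters in these windows and show no binding. All these elements were picked for their known part in this pathway, so their shares among the members are no independent test. The XBP1 element TGACGTGG was found in no member and in 0.714% of all genes. Among ERSE, ERSE-II and this element, matches overlapped in 3 cases over all windows, counted per window and pair of motifs. The ATF4 element was not compared for overlap. Among the measured genes, the F test between numbers had called 5 of the 8 with an ERSE match and 4 of the 15 with neither ERSE nor ERSE-II. Of all genes 1.07% were called. Chaperones made up 7 of those 8, but 3 of those 15, which held 7 ATF4-arm genes, so element and arm cannot be told apart. Sdf2l1 and Dnajb9, with the largest ranges, had neither element in the window. None of the 4 genes with the ATF4 element was called, and their log2 changes with GW4064 were -0.14 to -0.04.

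Other genes of the pathway, from lists of 170 symbols of which 156 were measured, were likewise not called between GW4064 and DMSO. In limma 0 of 156 passed after adjustment with or without the block, 5 passed at an unadjusted p under 0.05 without it (1 higher, 4 lower), where 5.66% of all genes did, and 9 with it (1 higher, 8 lower), where 9.13% did. Their median change was -0.03, and 10 of 156 had groups that did not overlap, where 10.8% of all genes did. With the block, an intensity trend and robust estimation together, 4 of 156 passed in limma after adjustment and all were lower, namely Ddit4, Gpt2, Clpx and Crebrf, while 0 of 28 members and 1.52% of all genes did. That fit was counted after the other results were seen. Vldlr, the gene of a lipoprotein receptor whose symbol begins the unmatched name, had 4.77, 4.03 and 4.78 with GW4064, against 4.32, 4.76 and 4.85 with DMSO.

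Within the 44 other targets of ATF4 and CHOP, 13 were higher and the smallest p belonged to Bbc3, the gene of the apoptosis activator PUMA. It had 4.22, 4.10 and 4.24 with GW4064, against 4.55, 4.57 and 4.92 with DMSO, so the groups did not overlap. Its change of -0.49 (SE 0.12) had an adjusted p of 0.539, or 0.248 with the block. Ddit4, which restrains mTORC1, had -0.575 (SE 0.26) and was lower in 3 of 3 pairs, and Pck2, the mitochondrial carboxykinase gene, had -0.23 (SE 0.09). With the block the limma adjusted p was 0.173 for Ddit4 (SE 0.092) and 0.480 for Pck2 (SE 0.078). None of these 3 passed over all genes without the block or with the block alone.

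Of the 14 other transducers, 4 were higher. Crebrf, a regulator of the CREB3 family, had 4.46, 5.04 and 5.05 with GW4064, against 5.19, 5.30 and 5.70 with DMSO. Its change was -0.55 (SE 0.19, limma adjusted p = 0.789), and with the block the SE was 0.11 and the adjusted p 0.265. Map3k5, the stress kinase ASK1 that IRE1 can engage, had -0.23 (SE 0.11), and Mbtps1, the protease that starts the cutting of ATF6, -0.15 (SE 0.09). Among 12 genes of the eIF2 kinases, eIF2 and its exchange factor, 6 were higher. Eif2b4, an exchange factor subunit, had 0.36 (SE 0.14, adjusted p = 0.858), Gcn1, which activates the kinase GCN2, 0.18 (SE 0.10), and Eif2b2, a second subunit, -0.13 (SE 0.12).

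The 36 other folding and quality control genes had a median change of -0.02. Fkbp14, a prolyl isomerase of the reticulum, had -0.25 (SE 0.14), Txndc5, of the disulfide isomerase family, 0.18 (SE 0.13) and Clgn, the calnexin relative calmegin, 0.14 (SE 0.10). Of 21 other degradation genes 6 were higher, with the deubiquitinase gene Yod1 at -0.21 (SE 0.10), the mannosidase gene Man1b1 at -0.10 (SE 0.09) and Herpud2 at -0.10 (SE 0.10). The lowest limma adjusted p among these 6 genes was 0.926 without the block, for Yod1, and 0.477 with it, for Fkbp14.

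Chaperones outside the reticulum were no different in this respect. The 18 cytosolic heat shock genes had a median of 0.02, with Bag3, a co-chaperone of HSP70, at 0.14 (SE 0.10) and the HSP110 family genes Hspa4l and Hspa4 at -0.12 and -0.11 (SE 0.11 each). In the 11 mitochondrial genes the median was -0.04. Clpx, the unfoldase of a matrix protease, had 7.24, 7.50 and 7.28 with GW4064, against 7.56, 7.72 and 7.68 with DMSO. Its change was -0.31 (SE 0.10, limma adjusted p = 0.789), and with the block the SE was 0.082 and the adjusted p 0.368. The protease gene Htra2 had -0.13 and the HSP90 relative Trap1 -0.08, each with an SE of 0.10.

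Between replicate numbers, the F test called 13 of these 156 genes, against 1.07% of all genes. Among them were 4 of 36 folding genes (Fkbp11, Nucb2, Ero1b and Selenos), 1 of 21 degradation genes (Derl3), 4 of 44 ATF4 and CHOP targets (Atf3, Aldh1l2, Slc7a11 and Ddit4) and 4 of 18 heat shock genes. In 9 of the 13 the mean was lowest in number 2 and highest in number 3, as in most members. Derl3, a channel component of degradation, was 4.25-fold higher in number 3 than in number 2, and Fkbp11, a prolyl isomerase, 3.09-fold. Atf3, a stress-induced partner of ATF4, was 2.48-fold higher. Hspa1a and Hspa1b, near-identical HSP70 genes whose signals may mix, were 4.58-fold and 4.75-fold higher. The heat shock gene Cryab, by contrast, was 0.693-fold, so lower in number 3. No gene of the transducer, eIF2 or mitochondrial lists was called between numbers.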

How the data were processed

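Total RNA of 6 hepatocyte cultures was labelled with biotin and read on 1-colour Affymetrix MoGene-2_0-st arrays, per the labels' protocols and the design text. The authors deposited RMA values, that is log2 intensities, 1 for each probe set and array; Partek is also named, both without versions, per the submitters' processing notes. The log base was taken from the range of values, 0.94 to 13.07. Of 41345 probe sets, 23521 carried exactly 1 symbol in the platform annotation, which gave 22180 genes after the brightest probe set was kept. The annotation and arrays carry no genome build in the sources used here, and promoter windows come from RefSeq.

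Groups and replicate numbers came from the sample titles. GW4064 was compared with DMSO with limma 3.58.1 in R 4.3.3, without a block and without a filter, with a threshold of 0.05 on Benjamini-Hochberg adjusted values from the whole gene table. Exact permutation of 3 against 3 arrays has a smallest two-sided p of 0.1 and was not used. Same-numbered arrays deviated together from their group means (correlations 0.26, 0.34 and 0.45, and all 6 arrays correlated best with their own number), which meets the minimum of 0.1, so the fit with the number as a block is given as well. Differences between numbers are the F test of that block. Whether arrays come from separate animals is not stated. Without the block, limma's p-values set a change against the spread within groups. With the block, they set it against the spread left after the number is fitted. Neither is known to be a spread between animals. Array number limits the precision. The fits were also run on data simulated under limma's own variance model, which cannot show whether that model suits these arrays. The members and lists were chosen with earlier results of these data known. Named beside the members are Abcb11, Nr0b2, Vldlr and the 3 genes of each further list with the smallest p; others were named after their values were seen. Alternatives were the block, quantile normalization, median centring, filters at the 25th percentile and the median of gene level, an intensity trend with robust estimation, the mean over probe sets, leaving out each array or number, and some of these with the block.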

Additional observations from a re-analysis of the deposited data

How the results depend on the processing

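No member was called under any setting tabulated, and no other pathway gene except 4 (Ddit4, Gpt2, Clpx and Crebrf, adjusted p 0.0045 to 0.029) with the replicate block, trend and robust estimation together, where the lowest adjusted p of a member was 0.191; the cause was not tested. Over all genes 11 were raised, 2 to 5 with arrays or numbers left out; none was lowered, but 2 with the replicate block (which raised 16), 1 without genes under the median, 3 with trend and robust estimation, and 0 to 1 with arrays left out. Settings combined with the block, chosen after seeing the data, raised 170 and lowered 168 with trend and robust estimation, raised 20 and lowered 2 with quantile normalization, and lowered 1 without genes under the 25th percentile; they raised 10 and lowered 3 without number 1, and raised 6 without number 2 and 4 without number 3. With arrays or numbers left out, the median log2 change ran from -0.20 to 0.32 for chaperones, -0.19 to 0.074 for sensors, -0.17 to 0.15 for degradation genes, -0.18 to 0.023 for the ATF4 arm, and the ATF4 arm minus the chaperones from -0.31 to 0.14; leaving out a single array breaks a pair. The count of 11 members differing between numbers, tested with alternatives chosen after seeing the data, was 4 without number 2, 0 without number 3 and 22 with trend and robust estimation, where 8.37% of all genes were called; the cause was not tested. Signs of uncalled changes near 0 turned for Ern1 (0.00683), Sel1l (0.0199) and Atf4 (0.011) after quantile normalization, for Sel1l (0.00876) and Atf4 (0.00896) after median centring, and for Edem1 (0.0199) with the mean over probe sets. They also turned with arrays or numbers left out, with log2 changes of Hspa5 -0.24 to 0.39, Hsp90b1 -0.20 to 0.32, Calr -0.0628 to 0.12, Canx -0.19 to 0.0197, Pdia3 -0.0734 to 0.11, Pdia6 -0.21 to 0.23, Dnajb9 -0.34 to 0.52, Dnajb11 -0.0935 to 0.24, Dnajc3 -0.0911 to 0.35, Sdf2l1 -0.37 to 0.50, Creld2 -0.34 to 0.32, Hyou1 -0.35 to 0.44, Manf -0.12 to 0.40, Ern1 -0.15 to 0.10. The remaining ranges were Atf6 -0.28 to 0.15, Xbp1 -0.0638 to 0.0528, Herpud1 -0.18 to 0.0398, Sel1l -0.20 to 0.20, Syvn1 -0.11 to 0.23, Edem1 -0.17 to 0.10, Atf4 -0.0727 to 0.0501, Ddit3 -0.35 to 0.51, Trib3 -0.23 to 0.037, Chac1 -0.22 to 0.00326, Asns -0.0933 to 0.0118, Sesn2 -0.36 to 0.0282, Ppp1r15a -0.62 to 0.0225, Vldlr -0.40 to 0.19. The block changed no call of a member. Depth is not defined for arrays; all members lay above the median gene level.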
